A study of Rattus norvegicus with 24 samples.

Results

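Myc and the genes of its dimerization network were followed in rat skeletal muscle over a month of daily resistance training. The network was taken as 10 genes of the deposited transcript table, chosen by gene symbol: Myc, Max, Mxd1, Mxd4, Mxi1, Mnt, Mga, Mlx, Usf1 and Usf2. All 10 were found, as 18 transcripts of the 20027 in the table, and the values of a gene's transcripts were summed, giving 10 of 15273 genes in all. RNA from the tibialis anterior, the main dorsiflexor of the ankle, was sequenced from 12 adult male Wistar rats, 3 at each of 2, 10, 20 and 30 days of training. In every animal the left muscle was trained once a day by an implanted pulse generator that stimulated the common peroneal nerve, with partial co-contraction of the plantarflexors as the load. The right muscle of the same animal, unstimulated and contralateral, was the control, so that each of the 4 time points held 3 trained and 3 contralateral muscles. All animals carried the implant, the muscles were taken an hour after the last bout, and sham-operated animals were not analysed here. A response to the last bout and a response to the weeks of training therefore cannot be told apart.

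The proteins of this network carry a basic helix-loop-helix leucine zipper and bind the E-box sequence CACGTG as dimers. Myc, an immediate early and growth-promoting factor, activates genes of ribosome synthesis and growth when it is paired with Max, its obligate partner. Mxd1, Mxd4, Mxi1 and Mnt compete with Myc for Max and recruit Sin3 co-repressors to the same sites, Mga pairs with Max in a repressive complex, Mlx pairs with Mnt, some Mxd proteins and the glucose-sensing Mondo factors, and Usf1 and Usf2 bind E-boxes with each other without Max. In muscle, Myc is known as an early gene of loading.

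The E-box was searched in the promoters of the members, taken as 250 bases before to 50 bases after the start of the gene in RefSeq (GRCr8). The motif CACGTG reads the same on both strands. Promoters were at hand for 8 of the 10 members, Myc and Usf2 being the ones without, and 4 of the 8 held the motif. Of 27457 genes with a promoter 7.08% held it, and of the 8165 tested genes with a promoter 10.2% held it. The 60 bases around each match are shown because they carry, in the members' own promoters, the letters that the members' proteins are known to bind. The capitals mark the E-box, and the sequences run 5′ to 3′ on the strand of the gene.
Max, chr6:101395291-101395350, minus strand: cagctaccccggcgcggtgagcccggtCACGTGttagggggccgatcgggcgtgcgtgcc
Mnt, chr10:60197809-60197868, plus strand: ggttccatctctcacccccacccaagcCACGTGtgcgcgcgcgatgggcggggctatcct
Mlx, chr10:86519789-86519848, plus strand: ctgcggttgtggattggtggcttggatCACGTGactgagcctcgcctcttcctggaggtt
Mxd4, chr14:80786557-80786616, plus strand: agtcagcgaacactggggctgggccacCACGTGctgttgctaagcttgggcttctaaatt
The match began 33 bases before the start in Max, 70 in Mlx, 123 in Mnt and 197 in Mxd4. The promoters of Mxi1, Mga, Mxd1 and Usf1 did not hold these letters in this window. A match is a description of sequence, and binding was not measured.

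The deposited transcript values have an equal total in every sample, 634431, and are therefore taken here to be of the TPM type. This total is lower than that of a full table of TPM values. In that type a transcript's reads are also divided by its length, which equal totals do not show. The methods of the paper name the median of ratios of DESeq2 as the normalization. Comparisons of levels between genes rest on the reading as TPM. The read depth of a sample cannot be read from these values, so that no counting interval is given. Each sample was divided here by a median-of-ratios factor, between 0.778 and 1.14, and gene sums on this scale are called levels below. Changes are differences of log2(level + 1) between the trained muscle and the contralateral muscle of the same animal, fitted with limma for 11196 genes with animal as a block and Benjamini-Hochberg adjustment over all of them. Changes on that scale understate those of low genes. A gene was called at an adjusted p below 0.05. The spread was estimated once per gene from all 12 animals, so that a gene has the same SE at each time point. Fibre genes stood at high levels in every muscle, with Acta1, the skeletal actin, between 19600 and 41300, as the label of skeletal muscle asks.

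In the contralateral muscles the members ranged from a median of 41.8 for Mxi1 to a median of 1.33 for Myc (n = 12). Mxi1 was followed by Usf2 at 33.5, Max at 12.7 and Mlx at 11.3. Mxd4 stood at 7.54, Usf1 at 7.21, Mga at 1.86, Mnt at 1.61 and Mxd1 at 1.41. The lowest Usf2 value, 31.3, lay above the highest Max value, 16.2, and the lowest Usf1 value, 5.20, above the highest Mga value, 2.26, whereas the ranges of all other neighbours in this order overlapped. No member was called in a limma F test between the 4 contralateral groups, with adjusted p between 0.477 for Mxi1 and 0.993 for Mxd1 and the smallest unadjusted p at 0.0648, also for Mxi1. Of 10517 genes tested there, 0.0666% were called.

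Myc (ENSRNOG00000004500, Rnor_6.0 chromosome 7, 102586313 to 102591240, plus strand) was higher in the trained muscle of every animal at every time point. In the contralateral muscles its level was 1.61, 2.28 and 1.86 in the 2-day animals, 1.62, 0.736 and 1.03 in the 10-day animals, 3.01, 0.775 and 0.851 in the 20-day animals and 0.386, 1.30 and 1.37 in the 30-day animals. In the trained muscles of the same animals it was 11.6, 20.7 and 18.9 at 2 days, 16.4, 11.1 and 13.8 at 10 days, 12, 11.5 and 6.16 at 20 days and 4.42, 6.82 and 4.88 at 30 days. The lowest trained value, 4.42, lay above the highest contralateral value of all 12 animals, 3.01, so that the groups did not overlap at any time point. Trained muscles held 17.1 ± 4.81 (SD, n = 3) after 2 days of training, 13.8 ± 2.62 after 10, 9.89 ± 3.24 after 20 and 5.37 ± 1.27 after 30, against contralateral means of 1.91 ± 0.339, 1.13 ± 0.450, 1.54 ± 1.27 and 1.02 ± 0.548. The means of the trained muscles thus fell from one time point to the next.

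**Figure D1:**
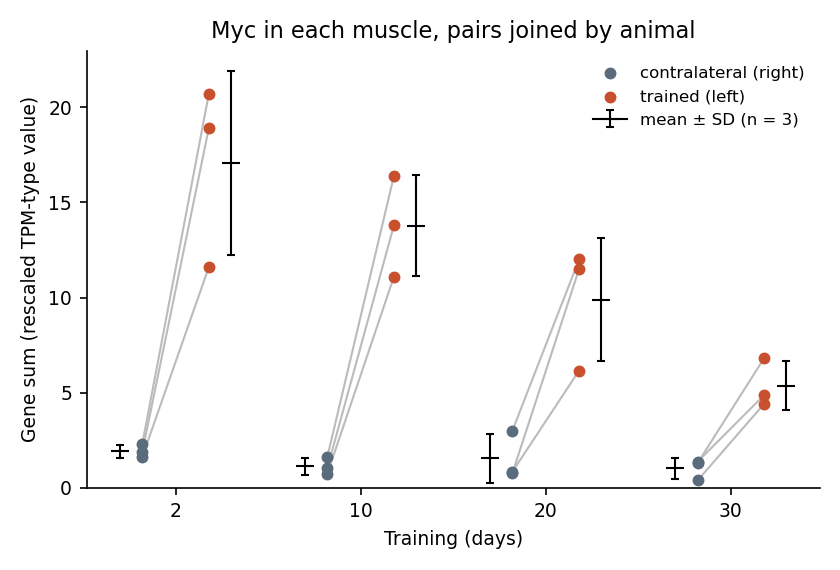
Myc level (gene sum of rescaled TPM-type values) in every muscle, by days of training. Grey lines join the contralateral and trained muscles of an animal, and black marks give mean ± SD (n = 3). All 12 trained muscles, from 4.42 to 20.7, lie above all 12 contralateral muscles, whose highest value is 3.01.

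The log2 change of Myc was 2.60 (SE 0.19, adjusted p = 1.69e-06 by limma) at 2 days, 2.80 at 10 days (adjusted p = 1.22e-06), 2.16 at 20 days (adjusted p = 8.14e-06) and 1.68 at 30 days (adjusted p = 9.82e-05), with the same SE. As a ratio of levels within an animal it ran from 7.23 to 10.2 at 2 days, from 10.1 to 15.1 at 10 days, from 4.00 to 14.8 at 20 days and from 3.57 to 11.4 at 30 days. The widest ratios did not fall in the highest trained muscles: those of 15.1 and 14.8 rest on contralateral levels of 0.736 and 0.775. The ratio of 11.4 at 30 days rests on one of 0.386. In the gene-level table deposited beside the transcripts the change of Myc at 30 days was smaller, 0.88 (adjusted p = 0.00693), and that at 20 days was 1.49. Of 11196 genes, 408 (3.64%) were called higher at all 4 time points, Myc among them.

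Whether the change of Myc declined over the month was examined within the same fit. The 30-day change was lower than the 2-day change by 0.92 on the log2 scale (SE 0.27), which did not pass the adjustment (adjusted p = 0.080, where 2.80% of genes were called). The mean of the 20- and 30-day changes differed from the mean of the 2- and 10-day changes by -0.78 (SE 0.19, adjusted p = 0.0351, where 4.66% of genes were called), a contrast that was added after the changes per time point had been seen. That call was lost when any of 9 of the 12 animals was left out, with differences between -0.95 and -0.67 over all 12 omissions. Against the 12 contralateral muscles pooled, with no pairing by animal, the 30-day change was lower by 1.48 (adjusted p = 0.00191 by limma). In this contrast that fit called 1677 genes, against 314 with the pairing. It compares trained muscles of different animals and leaves out their contralateral levels, with means of 1.91 at 2 days and 1.02 at 30 days. No step between neighbouring time points was called for Myc (adjusted p of 0.864, 0.512 and 0.999 and unadjusted p of 0.466, 0.0306 and 0.0990 by limma), in contrasts that called 0.0625%, 0.00893% and 0.00% of genes.

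Max (ENSRNOG00000008049, chromosome 6, 99984260 to 100011388, minus strand), the shared partner, was lower in the trained muscle of 10 of 12 animals, by a small amount. Its contralateral levels were 11.9, 16.2 and 11.2 at 2 days, 14.6, 13.2 and 12.7 at 10 days, 12.8, 9.86 and 10.8 at 20 days and 13.7, 12.9 and 11.1 at 30 days. The trained muscles held 9.62, 11.4 and 11.3, then 8.93, 10.7 and 11.2, then 9.33, 10.9 and 10.2, and at 30 days 9.53, 9.99 and 8.61. All 3 trained muscles lay below their own 3 contralateral muscles at 10 and 30 days, and the groups overlapped at 2 and 20 days. The log2 changes were -0.25, -0.36, -0.12 and -0.39 (SE 0.14), and none passed the adjustment, with adjusted p of 0.219, 0.0802, 0.601 and 0.0881. Averaged over the 4 time points, Max was lower by 0.28 on the log2 scale (SE 0.07, adjusted p = 0.00489 by limma), in a contrast in which 43.4% of all genes were called.

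Mxi1 (ENSRNOG00000034078, chromosome 1, 274030978 to 274090071, plus strand), a Max-binding repressor and the most abundant member, fell at every time point. Its levels were 43.0, 45.4 and 42.0 in contralateral against 31.4, 27.3 and 25.7 in trained muscles at 2 days, and 41.3, 37.2 and 35.9 against 21.7, 24.5 and 23.9 at 10 days. They were 38.8, 38.6 and 41.5 against 30.6, 27 and 29 at 20 days, and 48.7, 49.4 and 42.3 against 30.8, 33.3 and 32.4 at 30 days. Every trained muscle lay below every contralateral muscle of the 12 animals, the highest trained value being 33.3 and the lowest contralateral one 35.9. The trained muscle kept between 0.527 and 0.789 of the level of its contralateral muscle. The log2 change was -0.61 at 2 days (SE 0.11, adjusted p = 0.00195), -0.68 at 10 days (adjusted p = 0.00103), -0.45 at 20 days (adjusted p = 0.0161) and -0.52 at 30 days (adjusted p = 0.00984), by limma. Of all genes 197 (1.76%) were called lower at all 4 time points, Mxi1 among them. In the gene-level table the changes at 2, 10 and 20 days were -0.26, -0.30 and -0.36 and did not pass (adjusted p of 0.150, 0.110 and 0.0574). Calls were also lost at 20 days without animal 2 or without animal 3 (-0.42 in both, adjusted p of 0.0966 and 0.0775) and at 30 days without animal 1 (-0.46, adjusted p = 0.0631) or animal 2 (-0.51, adjusted p = 0.0685).

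Mxd1 (ENSRNOG00000017720, chromosome 4, 118449882 to 118472179, minus strand), a repressor linked to cell differentiation, had contralateral levels of 1.63, 1.40 and 1.37 at 2 days, 1.54, 1.42 and 1.34 at 10 days, 1.34, 1.20 and 1.65 at 20 days and 0.898, 1.5 and 1.85 at 30 days. In trained muscles they were 1.77, 3.27 and 2.39, then 2.03, 1.71 and 1.84, then 0.940, 1.10 and 0.939, and at 30 days 1.38, 0.838 and 1.43. The trained muscles lay above their 3 contralateral muscles at 2 and 10 days, below them at 20 days, and among them at 30 days. The log2 changes of 0.47 (SE 0.16, adjusted p = 0.0514), 0.23, -0.26 and -0.12 did not pass the test. At 2 days the change was called against the 12 pooled contralateral muscles (0.50, adjusted p = 0.00182) and with no pairing by animal (adjusted p = 0.0348), as well as without animal 1 (0.67, adjusted p = 0.0178).

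Mxd4 (ENSRNOG00000015033, chromosome 14, 81819469 to 81833456, plus strand), another Max-binding repressor, ranged from 6.81 to 10.4 in contralateral and from 6.15 to 10.7 in trained muscles. It was higher in the trained muscle of all 3 animals at 10 days, with 10.7, 10.0 and 9.22 against 8.63, 7.61 and 7.0. The log2 changes were -0.05, 0.33, 0.23 and 0.11 (SE 0.13), with none called (adjusted p of 0.818, 0.0929, 0.263 and 0.656). The 10-day change was called against the pooled contralateral muscles without the animal block (0.31, adjusted p = 0.0453).

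Mnt (ENSRNOG00000002894, chromosome 10, 61685241 to 61700491, plus strand), the broadly expressed Max-binding repressor, rose at 20 days. Contralateral levels lay between 1.23 and 2.04 in all 12 animals. At 20 days they were 1.53, 2.04 and 1.53, and the trained muscles of these animals held 2.66, 3.34 and 2.12, above every contralateral muscle of the study. The trained values at the other times were 1.52, 2.25 and 1.33 at 2 days, 1.70, 1.72 and 2.06 at 10 days and 2.08, 1.66 and 1.88 at 30 days, and they overlapped the contralateral ones. The log2 change was 0.45 at 20 days (SE 0.12, adjusted p = 0.0208 by limma), against 0.05, 0.11 and 0.12 at 2, 10 and 30 days, which did not pass. The 20-day call was lost on the values as deposited (0.39, adjusted p = 0.122), with no pairing by animal (adjusted p = 0.0537), without animal 1 (0.41, adjusted p = 0.125) and without animal 2 (0.42, adjusted p = 0.116). The 20-day change did not differ from its neighbours after adjustment. It exceeded the 10-day change by 0.34 (SE 0.17, adjusted p = 0.586 by limma), and the 30-day change stood at -0.33 from it (adjusted p = 0.999). It was not tested against the 2-day change.

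Mga (ENSRNOG00000006378, chromosome 3, 111699021 to 111759911, plus strand), which pairs with Max and also carries a T-box domain, ranged from 0.624 to 2.26 in contralateral and from 0.621 to 2.03 in trained muscles, and the groups overlapped at every time point. Its log2 changes of -0.07, -0.18, -0.29 and -0.10 (SE 0.15) did not pass (adjusted p between 0.212 and 0.796). Mlx (ENSRNOG00000019983, chromosome 10, 88997399 to 89002152, plus strand) ranged from 7.97 to 12.9 against 7.22 to 11.6, also with overlap at every time point. Its log2 changes of -0.28, -0.21, -0.24 and -0.04 (SE 0.14) did not pass either (adjusted p between 0.178 and 0.892). For both genes the intervals of the changes, between -0.61 and 0.26, exclude a change of the size seen in Myc.

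Of the upstream stimulatory factors, Usf2 stood above Usf1 in every muscle. Usf2 (ENSRNOG00000053725, chromosome 1, 89371794 to 89382463, minus strand) held 34.1, 37.8 and 37.7 in contralateral against 27.4, 25.9 and 28.3 in trained muscles at 2 days, and 33.7, 32.7 and 33.3 against 28.6, 28.4 and 24.2 at 30 days. At both times the trained muscles lay below all 12 contralateral muscles, whose range was 31.3 to 37.8. At 10 days the trained values were 26.2, 34.9 and 26.2, and at 20 days 37.9, 34.9 and 20.6, overlapping the contralateral ones. The 20-day muscle at 20.6 also held the lowest sum of 5 muscle fibre markers, 41200 against 59000 to 70300 in the contralateral muscles. Its Myc level, 6.16, was the lowest of the 20-day trained muscles too. The part of the low fibre sum in either result was not tested. The log2 changes were -0.42 (SE 0.14, adjusted p = 0.0517), -0.18, -0.13 and -0.29 (adjusted p = 0.210), and none was called. Without the animal that held the value of 20.6 the 20-day change was 0.10. Averaged over the 4 time points Usf2 was lower by 0.25 (SE 0.07, adjusted p = 0.0102 by limma), in 9 of 12 animals.

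Usf1 (ENSRNOG00000004255, chromosome 13, 89797800 to 89805558, plus strand) lay between 5.20 and 8.61 in contralateral muscles. In trained muscles it was 6.32, 10.2 and 9.09 at 2 days, 7.43, 7.04 and 5.93 at 10 days, 8.59, 7.75 and 5.12 at 20 days and 6.52, 4.82 and 4.00 at 30 days. The groups overlapped at every time point. The log2 changes of 0.10, -0.11, -0.05 and -0.30 (SE 0.18) did not pass (adjusted p of 0.719, 0.697, 0.888 and 0.296), and Usf1 was higher in 6 animals and lower in 6. Against the pooled contralateral muscles the 30-day change was -0.44 (adjusted p = 0.0242), whereas the 3 animals of that time point had contralateral levels of 5.20, 7.02 and 7.28.

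**Figure D2:**
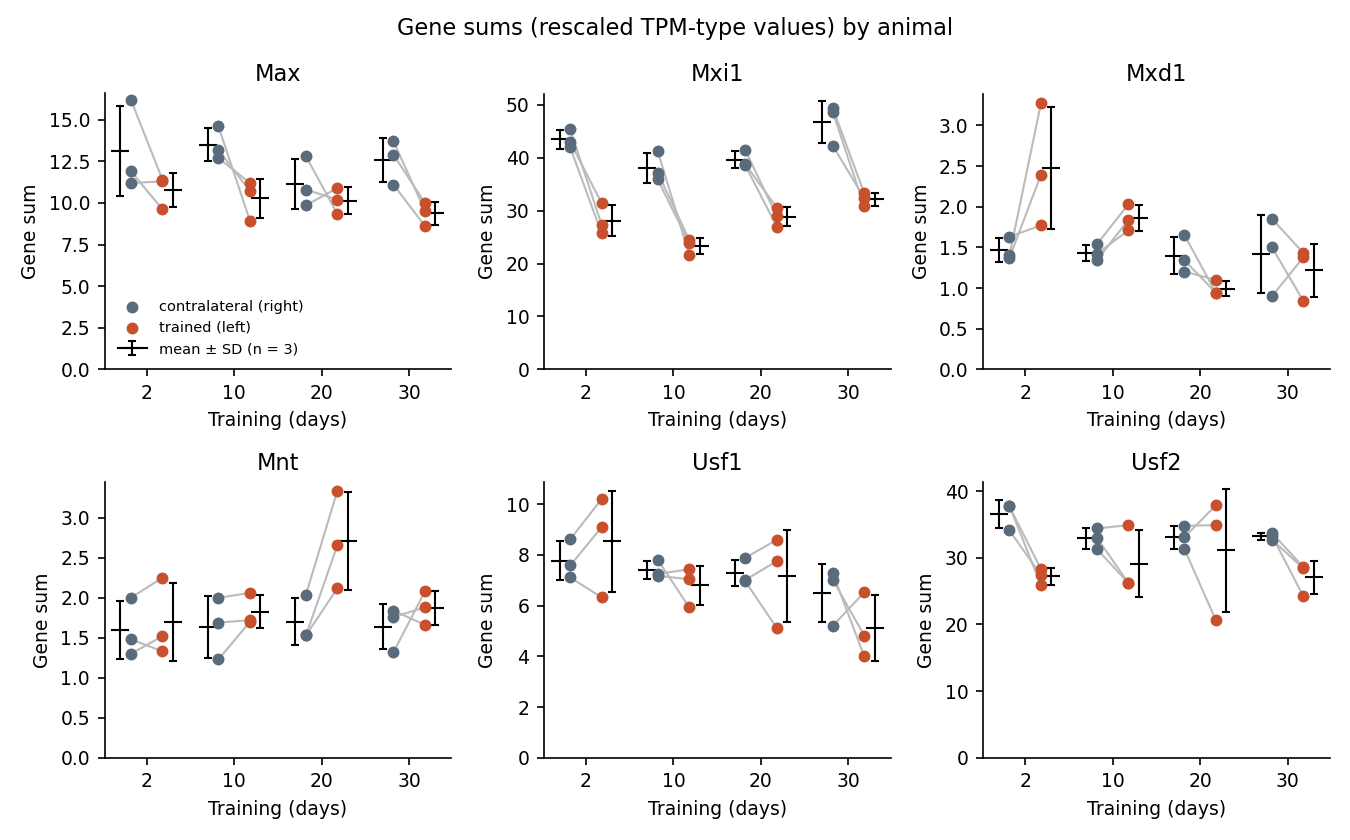
Levels of Max, Mxi1, Mxd1, Mnt, Usf1 and Usf2 in every muscle, by days of training, each panel with its own scale from 0. Grey lines join the muscles of an animal, and black marks give mean ± SD (n = 3). Mxi1 falls in all 12 animals, Mnt stands apart at 20 days, and Usf2 is below its contralateral muscles at 2 and 30 days.

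Over the 10 members, 2 were called at 2 days, where 21.6% of all genes were called, 2 at 10 days (20.1%), 3 at 20 days (17.4%) and 2 at 30 days (12.3%). They were Myc and Mxi1 at each time and Mnt at 20 days. The median change over the members was -0.06, -0.15, -0.12 and -0.11, against -0.02, -0.03, -0.02 and -0.01 over all genes tested. Members whose 3 trained muscles lay outside the range of their 3 contralateral muscles numbered 4, 5, 4 and 4 of 10, against 35.5%, 34.6%, 31.9% and 28.6% of all genes. Shares of called and of non-overlapping members were thus near those of all genes, and Myc was the member with a change beyond 1 on the log2 scale. For the mean over the 4 time points 6 members were called, Myc (2.31), Mxi1 (-0.57), Max (-0.28), Usf2 (-0.25), Mnt (0.18, adjusted p = 0.0247) and Mlx (-0.19, adjusted p = 0.0387), again against 43.4% of all genes. The call of Mlx was lost on the values as deposited (adjusted p = 0.122), in the gene-level table (adjusted p = 0.137) and without any of 7 animals, and that of Mnt on the values as deposited (adjusted p = 0.0837) and without any of 4 animals.

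**Figure D3:**
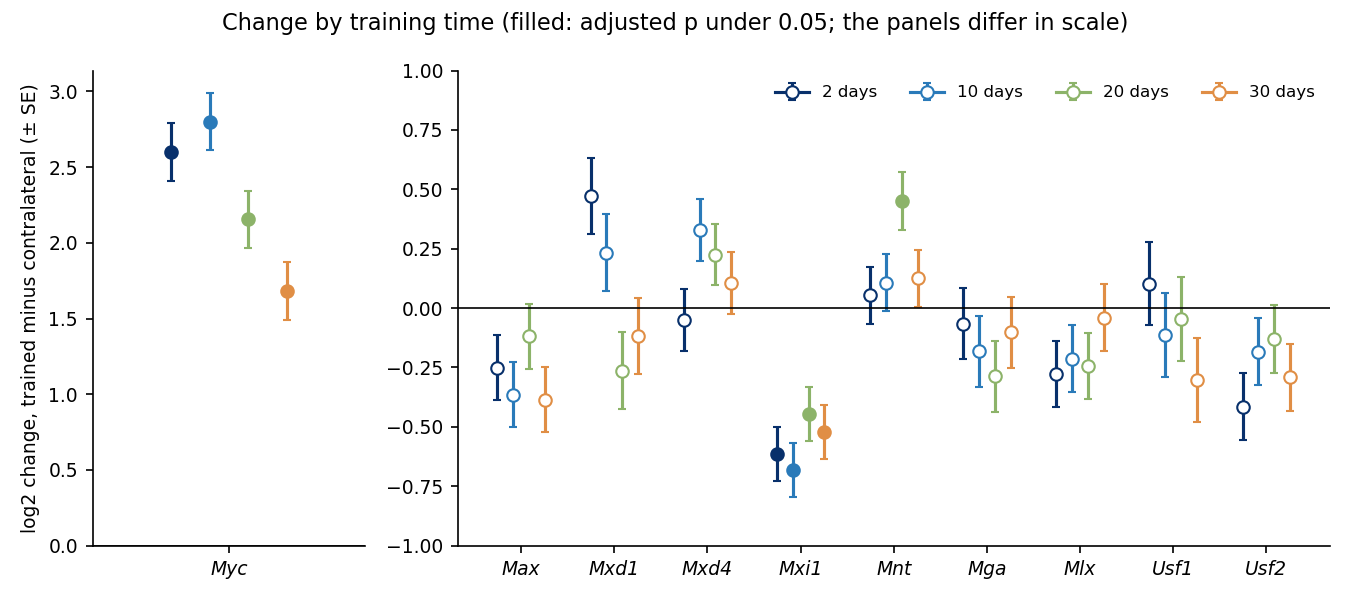
Log2 change (trained minus contralateral muscle of the same animal, on log2(level + 1), ± SE) of the 10 members at 2, 10, 20 and 30 days. Filled points passed an adjusted p of 0.05 in limma. Myc, between 1.68 and 2.80, is drawn on its own scale. Mxi1 is filled at all 4 times and Mnt at 20 days.

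Between 2 and 30 days the changes of the members other than Myc did not differ after adjustment. The difference was largest in size for Mxd1, whose change was lower at 30 than at 2 days by 0.59 on the log2 scale (SE 0.23, adjusted p = 0.171). Adjusted p for the other 8 lay between 0.406 and 0.949. The interval of the Mxi1 difference ran from -0.26 to 0.44, so that the decrease of Mxi1 at 30 days could have been either larger or smaller than that at 2 days. With the pooled contralateral muscles and no animal block, the difference was called for Mxd1 (-0.64, adjusted p = 0.00407) and Usf1 (-0.64, adjusted p = 0.0151).

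The opposite changes of Myc and Mxi1 were set against each other within each muscle, as ratios of levels that were chosen after the changes per gene had been seen. The sum was taken over Myc and the 5 members that rival it for Max (Mxd1, Mxd4, Mxi1, Mnt and Mga). Mxd3, a network gene that is not a member, was left out. Of this summed mRNA, Myc made up 2.85%, 3.67% and 3.33% in contralateral muscles of the 2-day animals. In those of the 30-day animals it made up 0.645%, 2.07% and 2.42%. In trained muscles the share was 21.4%, 32.1% and 32.9% at 2 days, 30.5%, 22.1% and 26.2% at 10 days, 21.1%, 21.2% and 12.7% at 20 days and 9.14%, 12.8% and 10.1% at 30 days. The highest contralateral share of all 12 animals was 5.54%, below every trained share. The mean share in trained muscles was 28.8 ± 6.42% at 2 days and 10.7 ± 1.90% at 30 days (SD, n = 3). The share was higher in the trained muscle of 12 of 12 animals (mean log2 difference 3.14 ± 0.67 SD). Since Myc had been seen higher and Mxi1 lower in all 12 animals, this direction was fixed by the choice of genes, and the ratios are given as a description with no test.

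The summed level of the 6 genes was 55.9 ± 4.13 in contralateral and 53.5 ± 4.60 in trained muscles (SD, n = 12), and it was higher in the trained muscle of 5 of 12 animals. Relative to Max, the sum was 4.50 ± 0.573 in contralateral and 5.30 ± 0.499 in trained muscles, higher in 10 of 12 animals, Max being lower in 10 of 12. Myc alone, relative to Max, was 0.111 ± 0.0547 in contralateral muscles, and in trained muscles it was 1.57 ± 0.316 after 2 days of training, 1.37 ± 0.412 after 10, 0.980 ± 0.350 after 20 and 0.571 ± 0.109 after 30. Myc mRNA thus stood above Max mRNA in all 6 trained muscles of 2 and 10 days and below it in all 3 of 30 days. These are ratios of mRNA that rest on reading the values as TPM, and proteins and dimers were not measured.

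**Figure D4:**
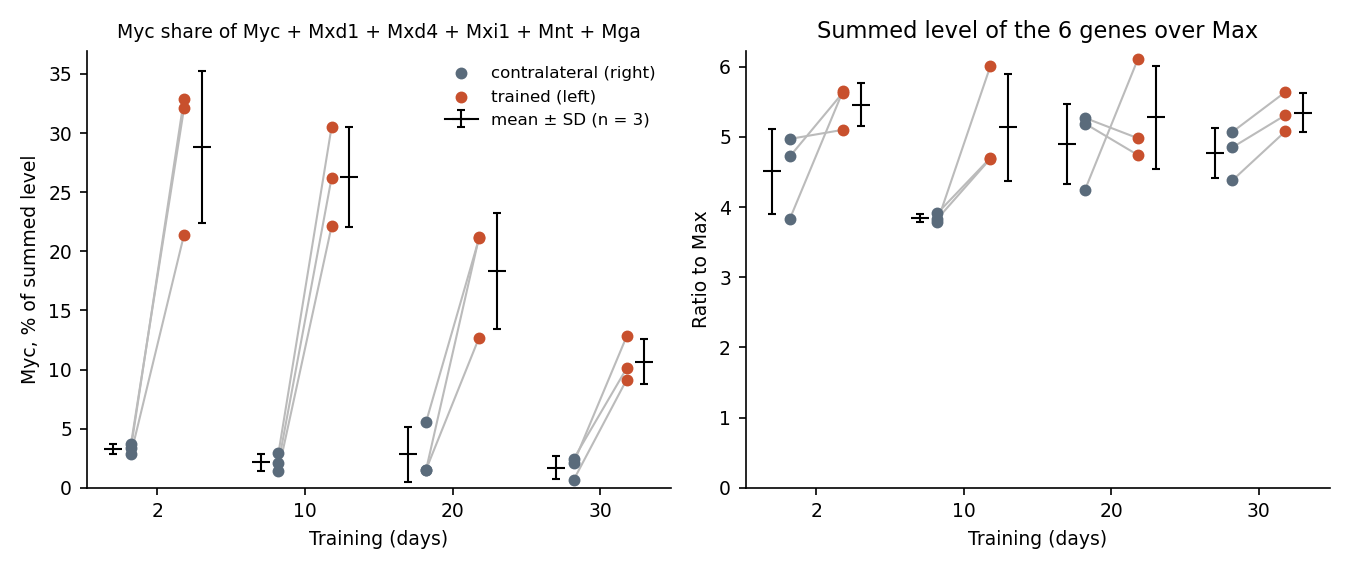
Left, Myc as a percentage of the summed level of Myc, Mxd1, Mxd4, Mxi1, Mnt and Mga in every muscle. Right, the summed level of these 6 genes relative to Max. Grey lines join the muscles of an animal and black marks give mean ± SD (n = 3). The Myc share is 21.4% to 32.9% in trained muscles at 2 days and 9.14% to 12.8% at 30 days, with contralateral shares up to 5.54%.

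The members' transcripts were looked at singly, in a fit of 13452 transcripts in which 15.3%, 13.9%, 11.6% and 7.74% were called at 2, 10, 20 and 30 days. Of the 18 member transcripts 13 passed the filter on low values, and the split of reads between overlapping transcripts of a gene is an estimate. The full-length Myc-201 made up 87.2% of the Myc level in contralateral muscles on average and changed by 2.54, 2.70, 1.91 and 1.5 on the log2 scale, called at all 4 times (adjusted p between 8.72e-06 and 0.000466 by limma). Myc-203, a short model inside the gene (102589982 to 102590741), was called at 2, 10 and 20 days, with changes of 1.40, 1.10 and 0.98, and had 0.60 at 30 days (adjusted p = 0.207). Myc-202 stayed under the filter. Both shorter models thus lay on the same strand within the span of Myc-201, whose reads they share.

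Mxi1 was carried by 3 transcripts. Mxi1-201, with 74.3% of the gene's contralateral level, was called at 10 days (-0.91, adjusted p = 0.00874) and had -0.60 at 2 days (adjusted p = 0.0557), -0.57 at 20 days and -0.36 at 30 days. Mxi1-202, which starts upstream of the others at 274030978 and held 6.17% of the level, was called at 30 days only in this fit (-1.43, adjusted p = 0.00696), from 4.07 ± 1.32 in contralateral to 0.890 ± 0.502 in trained muscles (SD, n = 3). Its change at 30 days did not differ from that at 2 days after adjustment (adjusted p = 0.160). Mxi1-203, with 19.5%, was not called at any time point. Max-201, with 97.1% of the Max level, was called at 10 days (-0.47, adjusted p = 0.0411), from 13.4 ± 1.17 to 9.35 ± 0.836, while Max-202 was under the filter and the share of Max-201 fell to 91.2% in those trained muscles.

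Genes that act with the network were taken from lists that are not independent of earlier results of these data. Of 7 further network genes 4 were tested, since Mycn and Mycl, the Myc paralogs, stayed under the filter with levels up to 0.415 and 0.279, and Mlxipl is not among the symbols in the table. None of the 4 rose or fell by limma at 2 and 10 days, when 2 and 1 had an unadjusted p below 0.05. Mlxip, the Mondo partner of Mlx, fell at 20 days by 0.72 (SE 0.19, adjusted p = 0.0210), and Bmyc, a short Myc-related gene, fell at 30 days by 0.65 (SE 0.18, adjusted p = 0.0352). The medians over the 4 were -0.28, -0.17, -0.12 and -0.27.

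Of 15 tested co-factors and regulators of Myc protein, 2 rose and 1 fell at 2 days, 2 rose at 10 days, 1 rose and 1 fell at 20 days, and 1 rose at 30 days. Usp28, a deubiquitinase that stabilizes Myc, rose at all 4 times, by 1.10 (SE 0.13), 1.01, 0.53 and 0.61 on the log2 scale, with levels of 12 to 15.1 in the 12 contralateral and 25.1 to 38.5 in the 2-day trained muscles. Pim1, a kinase that phosphorylates Myc, rose by 2.03 at 2 days (SE 0.24, adjusted p = 6.73e-05) and 0.93 at 10 days. Fbxw7, the ubiquitin ligase adaptor that marks Myc for breakdown and is opposed by Usp28, fell by 0.54 at 20 days (adjusted p = 0.0273), and Kat2a, an acetyltransferase, fell by 0.42 at 2 days (adjusted p = 0.0224). Of the 10 co-repressors used by Mxd and Mnt proteins, Sin3b rose at 2 days (0.38, adjusted p = 0.0498), Ncor1 fell at 20 days (-0.39, adjusted p = 0.0288) and Sap30 fell at 30 days (-0.67, adjusted p = 0.0437), and none passed limma's adjustment at 10 days, when 3 had an unadjusted p below 0.05. The medians lay between 0.05 and 0.15.

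Of 25 textbook genes activated by Myc, all tested, 2 rose and 2 fell at 2 days, 2 rose and 3 fell at 10 days, 2 rose and 1 fell at 20 days and 2 rose at 30 days, and the medians were 0.04, -0.06, 0.04 and -0.03. Of all genes 11.8% rose and 9.80% fell at 2 days, 12.1% and 8.0% at 10 days, 9.94% and 7.42% at 20 days and 7.21% and 5.09% at 30 days. Eif4a1, a translation initiation helicase, rose at all 4 times, by 0.80 (SE 0.12), 0.48, 0.55 and 0.48. Tfrc, the transferrin receptor, fell by 0.67 at 2 days (SE 0.22, adjusted p = 0.0467) and rose by 0.78, 1.18 and 1.17 at the later times. Ncl, a nucleolar protein of ribosome synthesis, rose at 2 days (0.46, adjusted p = 0.0136), and Ldha, lactate dehydrogenase A, fell (-0.47, adjusted p = 0.0176). Polr1b, a subunit of RNA polymerase I, fell at 10 days (-0.51, adjusted p = 0.00460), as did the chaperone Hspd1 (-0.39, adjusted p = 0.0324), and Eif4ebp1, an inhibitor of translation initiation, fell at 20 days (-0.44, adjusted p = 0.0390).

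Of 7 textbook genes repressed by Myc, 4 rose and 1 fell at 2 days, 2 rose and 1 fell at 10 days, 2 rose at 20 days and 1 rose at 30 days, with medians of 1.06, 0.31, 0.07 and 0.05. Gadd45b, a growth arrest and stress gene, rose at all 4 times, by 1.47 (SE 0.23), 1.82, 1.58 and 1.09, and Gadd45a by 1.91 at 2 days (SE 0.37, adjusted p = 0.00263). The cell cycle inhibitor Cdkn2b rose by 1.24 at 10 and 1.10 at 20 days. Cdkn1b, another such inhibitor, fell by 0.58 at 2 days (adjusted p = 0.00497) and 0.37 at 10 days, where its adjusted p lay just inside the threshold. Genes of this list also respond to stress and other factors, and a role of Myc in either list was not tested.

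Of 11 other E-box factors of the helix-loop-helix class, 3 rose at 2 days, 2 rose and 1 fell at 10 days, 1 rose and 2 fell at 20 days and 1 rose at 30 days. Hif1a, the hypoxia factor, rose at all 4 times, by 0.55, 0.94, 0.92 and 1.04 (SE 0.15). The clock factor Arntl rose at 2 days (0.87, adjusted p = 0.00243) and fell at 20 days (-0.55, adjusted p = 0.0376), its partner Clock fell at 10 days (-0.41, adjusted p = 0.0162) and 20 days (-0.39, adjusted p = 0.0261), and the clock-linked repressor Bhlhe40 rose at 10 days (0.58, adjusted p = 0.0108). Among the 835 tested genes whose promoter held CACGTG, 10.2% were called higher and 8.14% lower at 2 days, against 11.7% and 10.1% of all 8165 with a promoter. At 30 days the shares were 5.03% and 5.51% against 7.02% and 5.17%. The median changes of the 2 sets differed by no more than 0.03 at any time point.

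The genes whose pattern over the 12 animals was most like that of Myc were found by the root mean square of the difference between their log2 changes, among 5865 genes with a mean level of at least 5. They were Rcan1 (0.335), Midn (0.381), Col3a1 (0.442), Fhl1 (0.479) and Lmod2 (0.480). Rcan1, a calcineurin inhibitor, changed by 2.59, 2.82, 2.19 and 2.13, with levels of 21.9 to 47.5 in contralateral and 78.0 to 326 in trained muscles. Col3a1, a fibrillar collagen of connective tissue, changed by 2.56, 2.31, 1.94 and 1.60, and Midn, a nuclear protein, by 2.72, 2.71, 2.55 and 1.89. Fhl1 and Lmod2, proteins of the sarcomere, changed by 2.43, 2.38, 1.86 and 1.80 and by 2.37, 2.45, 1.79 and 1.97. No member of the network came near, the nearest being Mnt at 2.21, in a measure that weighs the size of a change as well as its course. The genes most like Max were Gsk3a (0.158), Polr3e (0.176) and Lysmd2 (0.184), and its nearest member was Usf2 at 0.306.

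Markers of some other cells also rose in trained muscles. Of 6 macrophage markers, 6, 5, 6 and 6 rose at the 4 times, and their summed level was 4.24 to 13.6 in the 12 contralateral and 14.4 to 40.9 in the 12 trained muscles. Of 4 fibroblast markers, 4, 4, 3 and 3 rose, from 52.2 to 169 in contralateral to 155 to 509 in trained muscles. The 3 tested markers of dividing cells rose at 2, 10 and 20 days and not at 30 days. With Ccnb1, another such marker, which stayed under the filter, the sums were 3.44 to 6.76, 3.94 to 6.47, 3.11 to 4.4 and 0.921 to 2.16, against 0.204 to 1.16. The mean sum of the dividing-cell markers and the mean level of Myc were both lowest at 30 days among the trained groups. So was the mean sum of the Schwann cell markers, with 1.57 to 4.65 at 30 days against 5.66 to 15.5 at 2 days. The mean muscle fibre sum was lowest there too, with 51800 to 59800 against 58600 to 59500, ranges that overlap. This was not so for the macrophage, fibroblast, endothelial and satellite cell sums. These sums leave out the contralateral muscles, whose Schwann sums were 3.13 to 12.4 at 30 days and at least 12.2 at 2 days. Against the contralateral muscles, the median log2 change of the tested dividing-cell markers was 1.14 at 2 days and 0.2 at 30 days. That of the Schwann cell markers was -0.38 and -0.6, and that of the fibre markers -0.39 and -0.3. Whether these low points are alike was not tested.

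Of 4 tested satellite cell and myoblast markers, 1 rose and 1 fell at 2 days, and 1 rose at 30 days. At 2 days Myog rose by 1.60 (adjusted p = 0.00357 by limma), with levels of 7.20 to 32.6 against 4.16 to 11.4 in the 12 contralateral muscles. Chodl fell by 0.63 at 2 days (adjusted p = 0.0366), and Myf5 rose by 0.48 at 30 days (adjusted p = 0.0466). Pax7, the defining marker of satellite cells, stood at no more than 0.729 in any muscle. Of 5 muscle fibre markers 1, 3, 1 and 1 fell, of 3 endothelial markers 0, 1, 1 and 0 rose, and none of 3 Schwann cell markers was called by limma, with 2 below an unadjusted p of 0.05 at 2 days and 2 at 30 days. Neutrophil markers summed to at most 2.52, and the T cell marker in the table to at most 0.476, all under the filter. The part of these cells in the change of Myc or of any other member was not tested. In bulk tissue, more cells of a type and more RNA per cell cannot be told apart.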

How the data were processed

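RNA-seq libraries (poly-A enriched, paired-end) of 24 muscles were aligned by the authors with STAR in Partek Flow to rn6 (Rnor_6.0), per the methods and the submitters' processing notes. The authors deposited transcript values, taken to be of the TPM type because they are equal in total per sample. They also deposited a gene-level signal table of 4635 genes that holds 6 of the members and whose scaling is not given in the sources used here. A table of the authors' own p-values, FDR values and ratios was not used. No counts were at hand, so no count model was run, and the depth of each sample cannot be read from the tables.

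Values were divided by median-of-ratios factors (16230 transcripts above 0 in all samples), summed per symbol, and fitted on log2(value + 1) with limma 3.58.1 in R 4.3.3, with animal as a block and 1 training effect per time point, for genes with a sum of at least 1 in at least 3 samples. Left and right muscles of an animal share its number in the labels, which gives the pairing. Deviations from group means correlated within animals with a median r of 0.174 (0.0277 to 0.343 over 12 pairs) and between animals with -0.00964. No 2 of the 24 libraries were identical (276 pairs). Ends of transcripts are printed as inclusive, 1-based positions. The fit was tested on simulated data. Python 3.11.15, numpy 2.4.6, pandas 2.3.3, scipy 1.17.1 and matplotlib 3.10.9 were used.

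The members and gene lists were chosen with earlier results of these data known. Members are given in full, and from each list, at each time, up to 2 rising and 2 falling genes past the threshold with the largest change. Alternatives were no block with pooled or time-matched contralateral muscles, values as deposited, a pseudocount of 0.1, no filter, a mean of at least 10, an intensity trend, the transcript with the highest mean, the gene-level table, a threshold of 0.01 and each animal left out in turn. The contrast of late and early changes and the ratios within a muscle were added after seeing the data.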

Additional observations from a re-analysis of the deposited data

Results flagged for a closer look

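The change of Myc differed between time points in a test of the difference itself: the mean of its changes at 20 and 30 days was lower than the mean at 2 and 10 days, with a difference of -0.78 on the log2 scale (SE 0.19, adjusted p = 0.0351 by limma over 11196 genes, of which 4.66% were called). The contrast was set after the 4 changes had been seen, and its call was lost without any of 9 of the 12 animals, with time-matched muscles and no replicate block (adjusted p = 0.151), with no filter on low values (adjusted p = 0.0526) and at a pseudocount of 0.1 (adjusted p = 0.255). The difference between 30 and 2 days was not called (adjusted p = 0.080), nor was any step between neighbouring time points. Myc was higher in the trained muscle of 12 of 12 animals.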

How the results depend on the processing

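The tables carry no read counts and each time point rests on 3 animals, which limits the precision of small changes. The change of Myc kept its direction and its call at all 4 time points in all 48 alternatives run, with log2 values between 0.88 and 3.54. The filter on a mean of at least 10 removed Myc, so that this setting is not among the 48. Of 428 alternatives for the other members' changes per time point, 387 kept direction and side of the threshold, 15 lost a call, 10 gained one and 16 turned sign. No contralateral difference was called in any of 130 alternatives. The causes of the differences given here were not tested.

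Genes called were 2417, 2252, 1944 and 1377 at 2, 10, 20 and 30 days, with 1409, 1114, 932 and 771 at a mean sum of at least 10, 690, 563, 487 and 461 in the gene-level table and 1263, 1201, 945 and 532 at a threshold of 0.01. Leaving out 1 animal gave 957 to 2426, 1222 to 1560, 964 to 1336 and 582 to 883. At 30 days 838 were called on the values as deposited. Between 30 and 2 days 314 genes were called, with 150 at a pseudocount of 0.1, 479 at a mean of at least 10, 37 at the threshold of 0.01 and 53 to 678 with 1 animal left out. On the values as deposited the higher and lower calls were 1417 and 374 at 2 days, 1311 and 374 at 10 days and 351 and 487 at 30 days, against 1320 and 1097, 1356 and 896, and 807 and 570. The median of all genes moved there from -0.02 to 0.09 at 2 days, and from -0.01 to -0.11 at 30 days.

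Without the pairing by animal (no replicate block, 12 pooled contralateral muscles), 2304 genes were called at 30 days and 1677 between 30 and 2 days, and 4 members at 30 days. In that fit the 10-minus-2-day difference of Myc, 0.20 with the block, was -0.27, and that of 30 minus 2 days -1.48. The signs of Mxd4 at 2 days (0.065), and of Mxd4 (-0.063), Mga (0.34) and Usf2 (-0.0077) in 30 minus 2 days, turned there. Without the block but with time-matched muscles, the late minus early difference of Myc (-0.78) was no longer called, nor was it at a pseudocount of 0.1 (-0.69), with no filter (-0.78) or at 0.01 (-0.78), and it ran from -0.95 to -0.67 with 1 animal left out. The 30-minus-2-day difference of Myc, -0.92, was called on the values as deposited (-1.21), for the transcript with the highest mean (-1.05), in the gene-level table (-1.46) and without 1 animal (range -1.08 to -0.73).

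Members called were 2, 2, 3 and 2. They were 1 at 2, 10 and 20 days in the gene-level table, which holds 6 of them. At a mean of at least 10, which removes members, Myc among them, they were 1 at 20 and 30 days. They were 1 at 20 days at 0.01 and 1 at 30 days for the transcript with the highest mean. With 1 animal left out they were 1 to 2 at 20 and at 30 days.

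Signs that turned belonged to changes that were not called. On the values as deposited these were Mxd4 at 2 days (0.072) and 30 days (-0.0033), and in 30 minus 2 days Mxd4 (-0.076), Mxi1 (-0.16), Mnt (-0.11), Mlx (-0.0) and Usf2 (-0.13). In the gene-level table they were Mxd4 at 2 days (0.10) and 30 days (-0.093), Usf1 at 10 days (0.021), and in 30 minus 2 days Mxd4 (-0.20), Mxi1 (-0.20), Mlx (-0.17) and Usf2 (-0.26). With 1 animal left out the ranges were -0.24 to 0.030 for Max at 20 days, -0.34 to 0.046 for Mxd1 at 30 days, -0.11 to 0.023 and -0.031 to 0.27 for Mxd4 at 2 and 30 days, -0.016 to 0.23 for Mnt at 30 days, -0.16 to 0.060 for Mga at 2 days, -0.13 to 0.035 for Mlx at 30 days, -0.18 to 0.0043 and -0.13 to 0.12 for Usf1 at 10 and 20 days and -0.29 to 0.097 for Usf2 at 20 days. In 30 minus 2 days they were -0.070 to 0.18 for Mnt and -0.16 to 0.058 for Mga.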
